A study of Mus musculus with 6 samples.

Results

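The 8 genes described here are the type 2 cytokine genes Il4, Il5 and Il13, the gene Rad50 that lies between Il13 and Il5, their neighbours on chromosome 11 Il3 and Csf2, and the related effector genes Il9 on chromosome 13 and Areg on chromosome 5. They were chosen by name, with earlier results of these data known, and all 8 are among the 26128 genes of the count table. RNA was sequenced from mouse double negative T (DNT) cells, which carry CD3 but lack CD4, CD8 and NK1.1 on their surface. The cells were made in culture from CD4+CD25- T cells of C57BL/6 mice with DBA/2 mature dendritic cells and IL-2, sorted, and then stimulated with anti-CD3/CD28 beads for 48 h, so they are converted cells and not DNT cells taken from an animal. In the control group (3 libraries) the beads were given alone, and in the IL-33 group (3 libraries) IL-33 was added at 50 ng/ml. Both groups thus share the wild-type strain, the conversion and the bead stimulus.

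IL-33 is an alarmin of the IL-1 family that signals through ST2, the product of Il1rl1, paired with the accessory chain encoded by Il1rap. In Th2 cells and group 2 innate lymphoid cells it is known as an inducer of IL-5 and IL-13, while IL-4 is tied more closely to T cell receptor signals. Il4, Il13 and Il5 form one gene cluster with Rad50, whose introns hold a locus control region for the cytokine genes, and Il3 and Csf2 form a second pair farther along the chromosome.

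In the mouse genome (GENCODE M21, GRCm38) the cluster runs from Il4 at chr11:53602982-53618669 and Il13 at chr11:53631324-53634702 through Rad50 at chr11:53649519-53707319, all on the minus strand, to Il5 at chr11:53720794-53725106 on the plus strand. The gap between Il4 and Il13 is 12.7 kb, that between Il13 and Rad50 is 14.8 kb, and that between Rad50 and Il5 is 13.5 kb. Csf2 (chr11:54247271-54249667) and Il3 (chr11:54265303-54267277), both on the minus strand, are 15.6 kb apart, and Csf2 begins 522 kb from Il5. Il9 lies at chr13:56479277-56482246 on the minus strand and Areg at chr5:91139599-91148432 on the plus strand.

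The 150 bases before the RefSeq start site (GRCm38.p6) are given for 6 of these genes, so that the start regions of genes that rose, of Il4, which did not, and of the low Il3 and Il9 can be read side by side. Each sequence is printed 5′ to 3′ on the strand of its gene. Capitals mark matches on either strand to 5 motifs. GATAA is the site of GATA factors. The core of NFAT sites is GGAAA, and AP-1 was searched as TGANTCA. The NF-kappaB motif was searched as GGGA followed after 4 free bases by a pair of C, and the TATA box as TATAAA.
Il13 (chr11:53634703-53634852, minus strand): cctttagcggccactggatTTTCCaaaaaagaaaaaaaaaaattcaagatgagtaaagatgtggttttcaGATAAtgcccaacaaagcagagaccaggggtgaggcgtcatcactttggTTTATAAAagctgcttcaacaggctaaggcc
Il5 (chr11:53720644-53720793, plus strand): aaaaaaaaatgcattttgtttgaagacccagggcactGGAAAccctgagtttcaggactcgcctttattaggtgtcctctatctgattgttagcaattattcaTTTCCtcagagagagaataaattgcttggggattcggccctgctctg
Il4 (chr11:53618666-53618815, minus strand): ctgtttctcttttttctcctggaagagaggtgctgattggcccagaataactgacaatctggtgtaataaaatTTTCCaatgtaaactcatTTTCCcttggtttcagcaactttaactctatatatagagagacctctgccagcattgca
Areg (chr5:91139449-91139598, plus strand): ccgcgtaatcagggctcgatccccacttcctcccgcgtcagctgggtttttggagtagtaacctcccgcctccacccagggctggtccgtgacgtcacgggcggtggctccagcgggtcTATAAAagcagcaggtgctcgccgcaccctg
Il9 (chr13:56482258-56482407, minus strand): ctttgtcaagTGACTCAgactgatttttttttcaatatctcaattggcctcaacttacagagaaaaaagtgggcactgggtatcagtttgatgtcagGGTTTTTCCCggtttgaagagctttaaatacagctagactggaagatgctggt
Il3 (chr11:54267280-54267429, minus strand): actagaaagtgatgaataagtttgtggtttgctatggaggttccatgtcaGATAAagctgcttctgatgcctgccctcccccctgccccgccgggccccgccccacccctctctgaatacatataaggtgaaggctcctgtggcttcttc
In the Il13 window the TATA box occurs at base -29 from the start site and, overlapping it, on the other strand at -31, beside a GATAA at -80 and a GGAAA at -131. Il5 holds 2 GGAAA matches, at -113 and -47, and Il4 holds 2, at -77 and -59. Areg has a TATAAA at -31, and Il3 a GATAA at -100. In Il9 a TGANTCA lies at -140, and an NF-kappaB motif at -53 overlaps a GGAAA at -49. Of all 32851 mouse windows of this length, 13.3% hold GATAA, 37.6% GGAAA, 4.24% TGANTCA, 11.9% the NF-kappaB motif and 7.57% TATAAA, and a match describes the sequence alone. A RefSeq window was found for 7 of the 8 genes. That of Csf2 begins 232 bases from the GENCODE start and is not printed, and Rad50 is named only. Il4 has another RefSeq window (chr11:53617339-53617488), which begins 1331 bases from the GENCODE start. It holds none of the motifs in its 150 bases and is not printed.

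The libraries held 20256342 to 22336050 counts. Levels are given as CPM, the count of a gene relative to the TMM-scaled size of its library, with the SD over the 3 libraries of a group. Nothing in the labels says that the replicates are different mice or cultures, so p-values measure the spread between these libraries, which may be technical. All 8 T cell markers examined (Cd3d, Cd3e, Cd3g, Cd247, Trac, Cd2, Cd5 and Lck) were above 1 CPM, with a sum of 1994 to 2132 CPM in the control and 2094 to 2154 CPM in the IL-33 libraries. Of the genes for the surface proteins absent by the sort, Cd8a read 545 ± 13.6 CPM in the control and 400 ± 9.15 CPM in the IL-33 group, and Cd8b1 9.68 ± 1.65 and 16.3 ± 2.07 CPM. Klrb1c, which encodes NK1.1, read 33.5 ± 2.57 and 25.6 ± 1.16 CPM, and Cd4 0.934 ± 0.183 and 0.373 ± 0.143 CPM (SD, n = 3). The RNA of Cd8a, and at lower levels that of Klrb1c and Cd8b1, thus went against the gate, which acted on surface protein.

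With IL-33, Il5, Il13 and Areg rose, Csf2 rose by less, Rad50 fell slightly and Il4 kept the same summed count. Il3 and Il9 were at or near 0 counts in the control libraries and reached 7 to 20 counts with IL-33. Of the 6 genes with enough counts to be tested, 5 passed an adjusted p of 0.05 in the quasi-likelihood test of edgeR (Benjamini-Hochberg), 4 higher and 1 lower, where 27.5% of the 14671 genes tested passed. Il5, Il13 and Areg also passed a fold change of 1.5, as did 4.87% of all genes tested in either direction and 2.47% upward. The median log2 fold change of the 6 was 0.63, against -0.0006 over all genes tested. The control and IL-33 libraries did not overlap in 5 of the 6, where 38.9% of genes tested did not overlap, nor in Il3 and Il9. In RNA from whole cultures, a larger share of producing cells and more RNA per producing cell cannot be told apart.

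**Figure D1:**
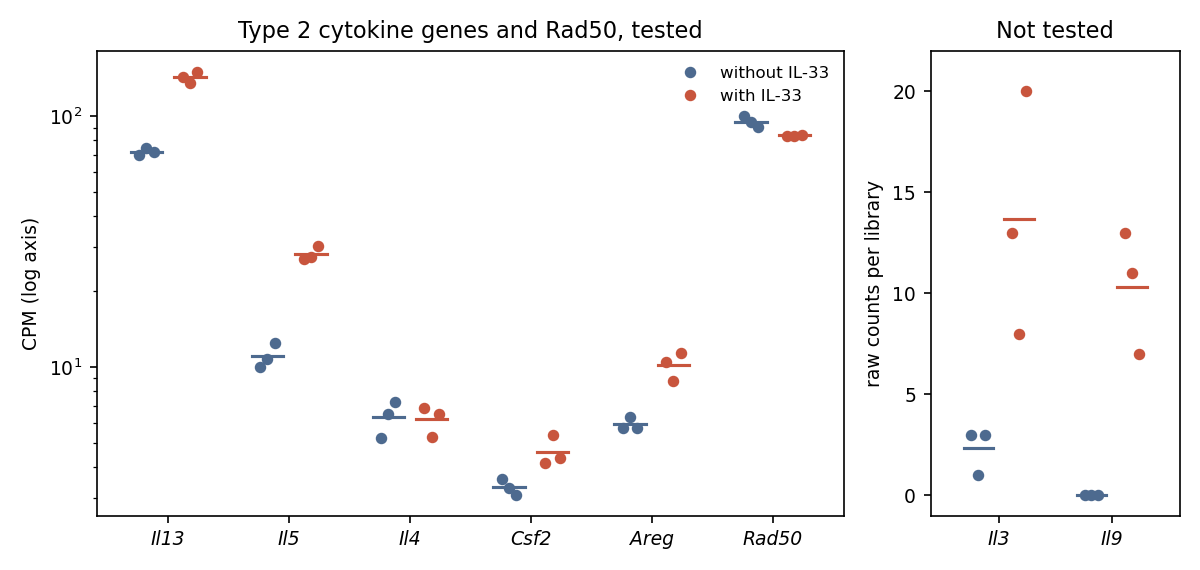
Level of each gene in every library, as CPM on a log axis for the 6 genes tested (left) and as raw counts for Il3 and Il9 (right), with a point per library and a line at the group mean (n = 3). Points with and without IL-33 are apart in every gene but Il4, and Il13 stands at 135 to 150 CPM with IL-33 against 70.3 to 74.5 CPM without.

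Il13 encodes IL-13, the effector cytokine of mucus production and of alternative macrophage activation. Its level was 70.3, 74.5 and 71.7 CPM in the control libraries and 144, 135 and 150 CPM in the IL-33 libraries, from 1492 to 3335 counts per library. Every IL-33 library was far above every control library, and neither group held a library that stood apart. The means were 72.2 ± 2.17 and 143 ± 7.54 CPM (SD, n = 3), a log2 fold change of 0.99 with an SE of 0.042 and a 95% interval of 0.90 to 1.07 (edgeR, adjusted p = 3.23e-39). With any 1 library left out the log2 fold change lay between 0.95 and 1.03.

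Il5 encodes IL-5, the growth and survival factor of eosinophils. It read 10.04, 10.7 and 12.4 CPM without IL-33 and 27.0, 27.6 and 30.4 CPM with it. The groups were separated by more than the whole range of either. The means of 11.1 ± 1.22 and 28.3 ± 1.82 CPM (SD, n = 3) differed by 1.35 on the log2 scale (SE 0.092, 95% interval 1.17 to 1.54, edgeR adjusted p = 2.94e-24), the largest change of the 6 genes tested, and the value stayed between 1.29 and 1.45 with any 1 library left out. An antisense gene annotated across Il5, Gm12214, is not listed in the table.

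Il4 encodes IL-4, the cytokine that drives Th2 differentiation and class switching to IgE. The control libraries read 5.23, 6.50 and 7.25 CPM and the IL-33 libraries 6.84, 5.25 and 6.53 CPM. The groups covered the same range, and the summed counts were 402 in each. The log2 fold change was -0.028 (SE 0.152) with a 95% interval of -0.33 to 0.27 (edgeR, adjusted p = 0.919), an interval that lies below the change of Il13, its neighbour at 12.7 kb. The sign of this small value was positive without IL-33 replicate 2 or without control replicate 3.

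Rad50, which encodes a subunit of the MRE11 complex for repair of DNA double-strand breaks, is flanked by the 2 cytokine genes that rose. Its libraries read 100, 94.7 and 90.2 CPM in the control group and 83.6, 83.7 and 84.3 CPM with IL-33. All IL-33 libraries were below the lowest control library, and they lay closer together than the controls. The log2 fold change was -0.18 (SE 0.043, 95% interval -0.27 to -0.097, edgeR adjusted p = 0.000394), a fall from 95.1 ± 5.15 to 83.8 ± 0.388 CPM (SD, n = 3). The small RNA gene Gm22275, which lies inside Rad50 on the opposite strand, had at most 4 counts in a library. Rad50 therefore moved against both of its neighbours, each under 15 kb away.

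**Figure D2:**
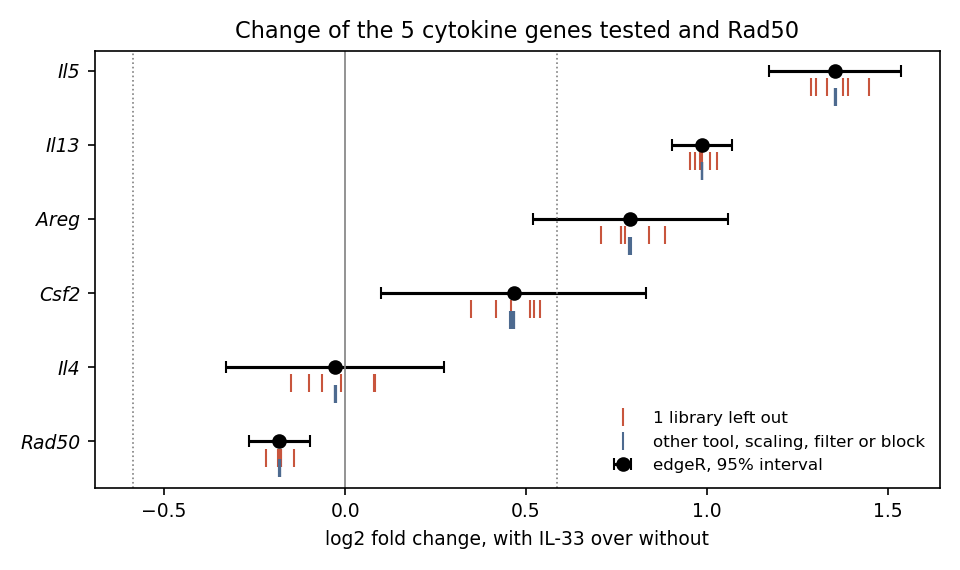
Log2 fold change (with over without IL-33) of the 6 genes tested, with the 95% interval of the edgeR fit as a black bar, and ticks for the values with 1 library left out or with another tool, scaling, filter or the replicate number in the model. Dotted lines mark a fold change of 1.5 in either direction, and the estimates of Il5, Il13 and Areg lie beyond it in every fit drawn, while those of Csf2, Il4 and Rad50 do not.

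Csf2 and Il3 encode GM-CSF and IL-3, growth factors of the myeloid lineage that share a receptor chain with IL-5. Csf2 read 3.58, 3.30 and 3.10 CPM in the control and 4.14, 5.34 and 4.32 CPM in the IL-33 libraries. The IL-33 libraries were all higher, replicate 2 the most so. The means of 3.33 ± 0.240 and 4.60 ± 0.649 CPM (SD, n = 3) gave a log2 fold change of 0.47 (SE 0.184, 95% interval 0.10 to 0.83) at an adjusted p of 0.0477 in edgeR. This call was close to the threshold. It was lost in DESeq2 (adjusted p = 0.141), in limma-voom (0.0691) and without any library but IL-33 replicate 1, with an adjusted p of 0.257 and a log2 fold change of 0.35 without IL-33 replicate 2. The antisense gene Gm12223 overlaps Csf2 and held 2 to 9 counts per library, beside 211 and 297 counts of Csf2 summed over the control and IL-33 groups.

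Il3 had 3, 1 and 3 counts in the control libraries and 13, 8 and 20 counts in the IL-33 libraries. Each IL-33 library was above each control library. The ratio of the depth-scaled sums was 5.68, with an exact 95% interval of 2.52 to 14.996 that covers counting error only. The gene was under the count filter. In the edgeR fit without a filter its adjusted p was 0.00534, and DESeq2 gave it no adjusted p.

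Il9 encodes IL-9, a growth factor of mast cells made by Th9 cells and innate lymphoid cells. It had 0 counts in each of the 3 control libraries and 13, 11 and 7 counts in the IL-33 libraries. Against a floor of 3 counts over the control group, Il9 was at least 10.01-fold higher with IL-33 if its 31 counts are taken without error, and with counting error the lower 95% limit of the exact counting interval of the ratio was 7.67. Without a filter the adjusted p was 6.27e-05 in edgeR, and DESeq2 again gave none. The change of Il9 rests on these 31 counts.

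Areg encodes amphiregulin, an EGF receptor ligand linked to tissue repair by regulatory T cells and innate lymphoid cells. Its level was 5.70, 6.35 and 5.70 CPM without IL-33 and 10.5, 8.82 and 11.3 CPM with it. The lowest IL-33 library, replicate 2, was above the highest control. The means were 5.92 ± 0.373 and 10.2 ± 1.28 CPM (SD, n = 3), a log2 fold change of 0.79 (SE 0.135, 95% interval 0.52 to 1.06, edgeR adjusted p = 1.09e-06) that stayed between 0.71 and 0.88 with any 1 library left out.

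To compare levels between genes, CPM were divided by the length of each gene's merged exons. On this scale (CPM per kb) Il13 led in both groups, with 59.9 ± 1.80 in the control and 119 ± 6.26 in the IL-33 group (SD, n = 3). Rad50 followed in the control group at 17.7 ± 0.959, ahead of Il5 at 7.19 ± 0.795, and with IL-33 this order turned, to 18.4 ± 1.18 for Il5 and 15.6 ± 0.0722 for Rad50. Il4 (5.16 ± 0.834) and Areg (4.87 ± 0.307) did not differ beyond their spread in the control group, where Csf2 stood at 4.16 ± 0.300. With IL-33 Areg at 8.40 ± 1.05 was above Csf2 at 5.75 ± 0.811 and Il4 at 5.05 ± 0.686, which did not differ beyond their spread. Il3 and Il9 were lowest in both groups, at 0.999 ± 0.414 and 0.898 ± 0.279 with IL-33, again within their spread.

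The 7 cytokine and growth factor genes without Rad50 summed to 98.9 ± 3.46 CPM in the control and 193 ± 10.5 CPM in the IL-33 group (SD, n = 3), a ratio of 1.96. Il13 made up 73.0 ± 1.33% of these counts without and 73.9 ± 0.377% with IL-33. The share of Il5 was 11.2 ± 1.04% and 14.6 ± 0.607%, that of Il4 6.38 ± 0.863% and 3.201 ± 0.333%. The Il4 share was thus lower in all 3 IL-33 libraries while the Il13 share moved by less than its control SD. Since Il4 held 402 counts in each group, its lower share follows from the larger sum and is not a separate fall of Il4.

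Ratios within a library do not depend on scaling. Il13 had 7.005, 6.95 and 5.78 times the counts of Il5 in the control libraries and 5.33, 4.90 and 4.94 times in the IL-33 libraries. Il13 over Il4 was 13.4, 11.5 and 9.89 without and 21.0, 25.7 and 23.0 with IL-33. Neither ratio overlapped between the groups, which gives an exact two-sided permutation p of 0.1 for each, the smallest that 3 against 3 libraries allow and unchanged by Benjamini-Hochberg adjustment over the 5 ratios computed. Of those 5, Il5 over Rad50 (0.117 ± 0.0191 and 0.337 ± 0.0201) and Il13 over Areg (12.2 ± 0.427 and 14.1 ± 1.08, control and IL-33, SD, n = 3) were not in the original plan, and each had the same exact permutation p of 0.1. Csf2 over Il3 was 25.3, 67.0 and 22.7 against 6.85, 14.0 and 4.80 (also p = 0.1, exact permutation), but its control values rest on 1 to 3 counts of Il3.

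**Figure D3:**
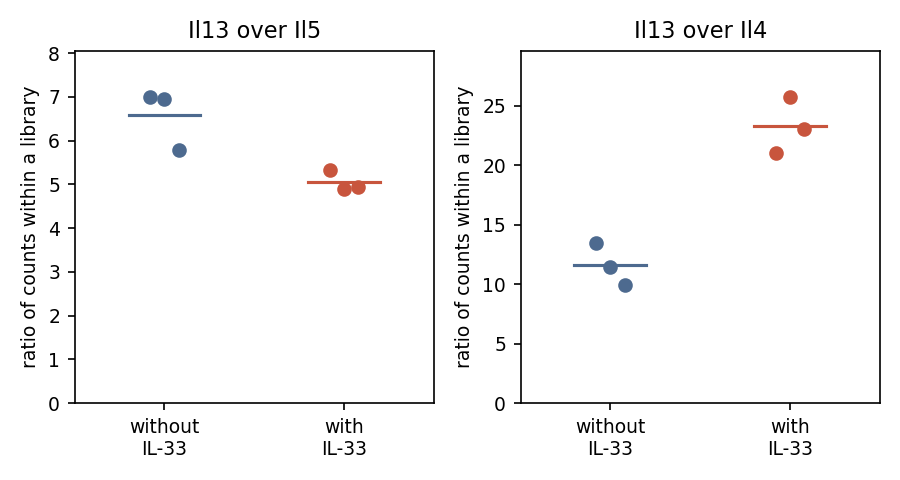
Counts of Il13 divided by those of Il5 (left) and of Il4 (right) in each library, with a line at the group mean (n = 3). Il13 over Il5 is 5.78 to 7.005 without and 4.90 to 5.33 with IL-33, and Il13 over Il4 is 9.89 to 13.4 without and 21.0 to 25.7 with it.

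The neighbours of the 8 genes were then described to see whether the changes extended along the chromosome. Within 500 kb lie 103 annotated genes, of which 63 are listed and 26 could be tested. Of these 26, 9 rose and 4 fell at the adjusted p of 0.05, and 6 passed both thresholds, all upward. Among the 6, 4933405E24Rik and Cxcl5 were under the filter's minimum count of 10 in every control library. They entered the test through the IL-33 libraries alone and could only be called upward, so the filter partly set this count. Over all genes tested, 13.6% rose and 13.9% fell at that adjusted p, 4.87% passed both thresholds and 2.47% did so upward. The median log2 fold change of the 26 was 0.030. On chromosome 11, 3 of 17 tested neighbours passed both thresholds, around Il9 0 of 4, and around Areg 3 of 5.

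On chromosome 11, P4ha2, which encodes a collagen prolyl hydroxylase subunit and lies 116 kb from Csf2, rose from 13.1 ± 1.16 to 20.9 ± 1.99 CPM (SD, n = 3). Its log2 fold change was 0.67 (edgeR, adjusted p = 8.12e-09). The long intergenic RNA 4933405E24Rik, 34.0 kb from Csf2, had 2, 4 and 3 counts in the control and 11, 18 and 15 counts in the IL-33 libraries, with no overlap (log2 fold change 2.22, SE 0.601, edgeR adjusted p = 0.0024). Slc22a21, a carnitine transporter gene 225 kb from Il5, read 1.82 ± 0.496 and 2.86 ± 0.162 CPM (log2 fold change 0.65, edgeR adjusted p = 0.0352). That call was lost in DESeq2 (adjusted p = 0.119) and without each library but control replicate 3, at adjusted p values up to 0.181. Between Il4 and Il5, no gene but Il13 and Rad50 was tested.

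**Figure D4:**
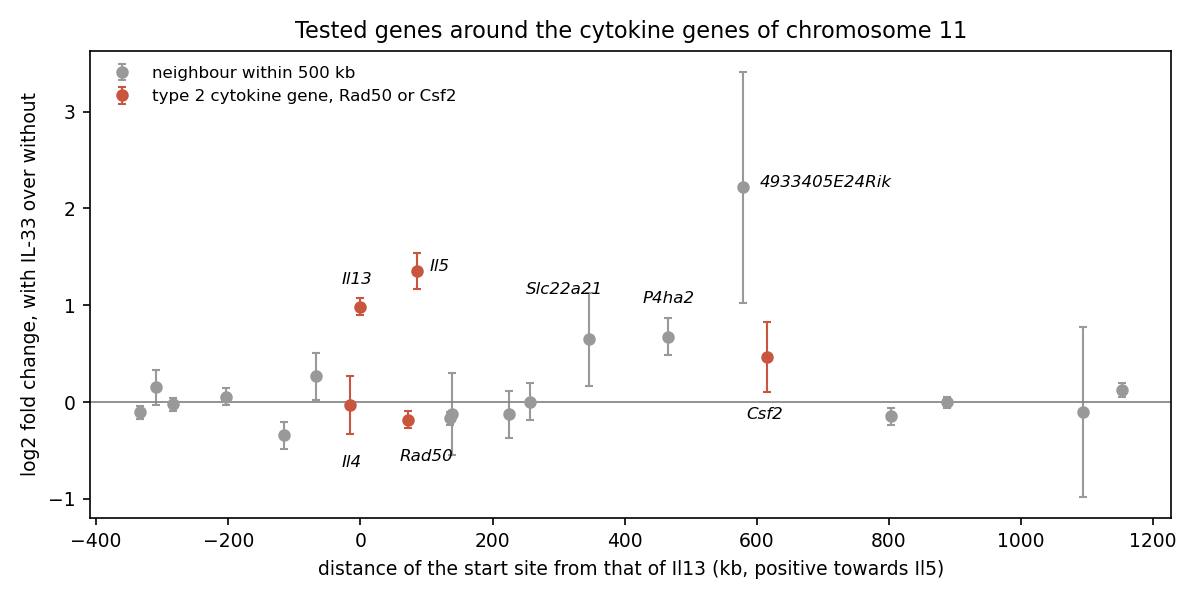
Log2 fold change (with over without IL-33) of each tested gene against the distance of its start site from that of Il13 in kb, with 95% intervals of the edgeR fit, for the cytokine genes, Rad50 and Csf2 in red and neighbours within 500 kb in grey. Il13 at 0.99 and Il5 at 1.35 stand above Il4 at -0.028 and Rad50 at -0.18, which lie beside and between them.

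Around Areg, Rassf6, a RAS association domain gene 499 kb away, rose from 12.5 ± 1.03 to 19.0 ± 1.19 CPM (SD, n = 3; log2 fold change 0.60, edgeR adjusted p = 4.42e-07). The neutrophil-attracting chemokine genes Cxcl5 and Cxcl2 were low. Cxcl5 had 7, 7 and 2 counts without and 19, 16 and 19 with IL-33, so that the groups did not overlap (log2 fold change 1.70, edgeR adjusted p = 0.00691, and 0.0796 without control replicate 3). Cxcl2 had 24, 4 and 10 counts without and 22, 20 and 57 with IL-33. Its groups overlapped, and its adjusted p of 0.0339 in edgeR (log2 fold change 1.34) became 0.295 without IL-33 replicate 3, which held the 57 counts, 0.123 without control replicate 2 and 0.141 without control replicate 3.

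Genes that sense, activate or restrain type 2 cytokines were described from 4 lists of 72 genes, 63 of them tested. Together 10 rose and 24 fell at an adjusted p of 0.05, and 1 rose and 7 fell past both thresholds, with a median log2 fold change of -0.13. For the receptor list, 0 of 13 tested genes rose and 8 fell at that adjusted p, 5 of them past both thresholds, with a median of -0.25. Over all genes tested, 13.6% rose and 13.9% fell at the adjusted p, and 2.47% rose and 2.39% fell past both thresholds, which is the background for each of the 4 lists.

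Il1rl1, the gene of the IL-33 receptor ST2, read 14.0, 18.5 and 15.5 CPM in the control and 9.58, 9.44 and 10.2 CPM in the IL-33 libraries. All IL-33 libraries were lower (log2 fold change -0.71, SE 0.111, edgeR adjusted p = 9.01e-08). Il1rap, its partner, read 15.2 ± 0.425 and 15.8 ± 0.682 CPM (log2 fold change 0.056, adjusted p = 0.730). Il17rb, the IL-25 receptor, fell by 1.01 on the log2 scale (adjusted p = 2.1e-09), and it overlaps Actr8, a gene with more counts on the opposite strand, whose reads may be shared since use of the strand is not given in the sources used here. Il7r, the IL-7 receptor and a part of the TSLP receptor, fell by 0.66 (adjusted p = 1.14e-24).

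Among receptors for the cytokines themselves, Il9r fell from 6.27 ± 0.171 to 4.07 ± 0.798 CPM (SD, n = 3; log2 fold change -0.62, edgeR adjusted p = 0.00198). Il4ra, the shared chain for IL-4 and IL-13, read 510 ± 20.4 and 485 ± 27.1 CPM (log2 fold change -0.072, adjusted p = 0.109), with an adjusted p of 0.0149 without IL-33 replicate 3 and 0.0297 without control replicate 3. Csf2rb, the chain shared by IL-3, IL-5 and GM-CSF, read 3.62 ± 0.777 and 3.83 ± 0.600 CPM (adjusted p = 0.799). Its close copy Csf2rb2, used by the IL-3 receptor, read 3.15 ± 0.558 and 1.97 ± 0.446 CPM (log2 fold change -0.67, adjusted p = 0.0227). That call was lost in DESeq2 (0.0898) and without IL-33 replicates 1 or 2 or control replicates 1 or 2, at adjusted p values up to 0.1201, and reads of the 2 copies may be split between them. Il5ra is not listed in the table.

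Of 19 tested activators of type 2 cytokine genes, 5 rose and 7 fell at an adjusted p of 0.05, with a median log2 fold change of -0.058, and Maf alone passed both thresholds. Maf, an activator of Il4 transcription, read 114, 115 and 126 CPM without and 73.2, 71.8 and 80.4 CPM with IL-33, a fall of all 3 libraries (log2 fold change -0.65, SE 0.044, edgeR adjusted p = 2.15e-22). Gata3, the lineage factor of type 2 lymphocytes, read 59.6 ± 2.82 and 53.2 ± 1.23 CPM (log2 fold change -0.16, adjusted p = 0.0124). The call for Gata3 was lost without IL-33 replicate 1 (0.0671) and without control replicate 2 (0.121). Stat6, which carries the IL-4 receptor signal, had a log2 fold change of -0.058 (adjusted p = 0.214).

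Of 16 restrainers, 3 rose and 6 fell, with a median of -0.24, and Socs1 passed both thresholds. Socs1 encodes a suppressor of cytokine signalling and read 47.5, 48.1 and 47.7 CPM without and 25.2, 23.7 and 29.5 CPM with IL-33 (log2 fold change -0.87, SE 0.067, edgeR adjusted p = 1.04e-20). Of 15 other products of type 2 cells, 2 rose and 3 fell, with a median of -0.056. Il6 passed both thresholds, with 5.61, 5.81 and 4.43 CPM without and 11.6, 10.2 and 10.8 CPM with IL-33 (log2 fold change 1.05, SE 0.137, adjusted p = 3.35e-10), so its 3 IL-33 libraries were all higher.

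**Figure D5:**
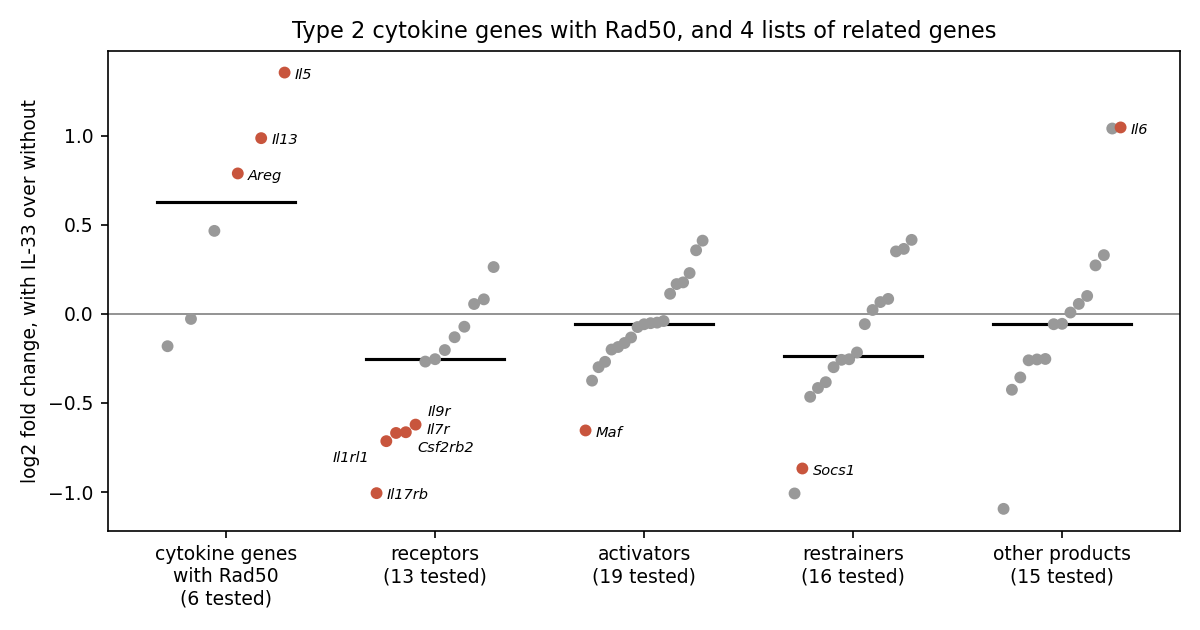
Log2 fold change (with over without IL-33) of each tested gene in the cytokine set and the 4 lists, in ascending order within a list, with black lines at the medians and genes past both thresholds in red. The cytokine set has a median of 0.63 and the lists have medians of -0.25, -0.058, -0.24 and -0.056.

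Several other cell types make or answer these cytokines, and their markers were read in the same libraries. Mast cell and basophil markers (11 of 13 listed) summed to 40.0 to 44.1 CPM in the control and 28.6 to 33.4 CPM in the IL-33 libraries. Of these, Cma1 read 22.01 and 17.9 CPM, Cpa3 10.9 and 7.10, Mcpt8 5.81 and 4.32 and Hdc 1.30 and 1.51 CPM in the control and IL-33 groups. The defining receptor genes Fcer1a (0.392 and 0.0775 CPM) and Ms4a2 (0.172 and 0 CPM) and the factor Gata2 (0.321 and 0 CPM) were at or near 0. Fcer1a had 12, 5 and 8 counts in the control and 5, 0 and 0 in the IL-33 libraries. Ms4a2 had 2, 3 and 6 and Gata2 1, 14 and 5 counts in the control libraries, and both had 0 with IL-33. The CPM of each did not overlap between the groups, as in 38.9% of genes tested. The margin was 1 count for Gata2, and for Fcer1a equal counts of 5 were parted by library scaling alone. Among the other low markers listed, Tpsb2 did not overlap either, while Prss34, Mcpt1 and Mcpt2 did. In the edgeR fit without a filter the adjusted p values of Fcer1a, Ms4a2 and Gata2 were 0.0730, 0.0642 and 0.00321.

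Eosinophil markers (4 of 5 listed) summed to 2.17 to 2.26 CPM without and 2.12 to 2.48 CPM with IL-33, nearly all of it from Siglecf (0.963 and 0.802 CPM) and Ccr3 (1.07 and 1.35 CPM), with Epx and Prg2 near 0. Dendritic and myeloid markers (12 of 12 listed) summed to 105 to 108 and 82.0 to 91.7 CPM. In that list Itgax fell from 54.6 to 26.0 CPM and Cd74 from 5.66 to 3.78, while H2-Ab1 (24.8 to 30.3), Itgam (2.61 to 4.83) and Batf3 (1.51 to 3.68 CPM) rose at the adjusted p of 0.05 in edgeR. Xcr1, Zbtb46 and Ciita did not pass that test, and Flt3, Csf1r and Lyz2 were at or near 0. H2-Aa, which encodes the partner chain of H2-Ab1, did not rise with it and was near 0, at 0.379 and 0.170 CPM with overlapping groups.

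Markers of NKT, MAIT and gamma delta T cells (4 of 5) summed to 78.0 to 89.3 CPM without and 54.9 to 58.6 CPM with IL-33. The other, Trgc1, was not matched by name to any gene, so its level is not known. Zbtb16 read 24.1 and 14.998 CPM, Trdc 24.7 and 15.1, and Sox13 1.58 and 0.838 CPM, beside the Klrb1c values above. Markers of NK cells and ILC2 (6 of 6 listed) summed to 406 to 412 and 373 to 398 CPM, most of it from Eomes, with Ncr1 near 0. In that list Il17rb alone passed both thresholds, at 10.7 and 5.32 CPM, while Calca read 17.5 and 14.6, Klrg1 4.56 and 5.30 and Nmur1 3.58 and 4.09 CPM. B cell markers (3 of 5 listed) summed to 4.79 to 5.70 and 5.30 to 6.35 CPM, mainly Cd79b and Cd79a. The part of such cells in the cytokine levels was not tested.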

How the data were processed

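RNA-seq was performed on converted mouse DNT cells in 3 control and 3 IL-33 libraries, grouped by their titles. The counts deposited by the authors are whole numbers of reads for each gene in each library and were not normalized. The submitters' processing notes name Bowtie 0.12.2 and the build mm8, without saying what each was used for. The sources used here give neither the counting program nor whether strand was used. The labels and the study's methods name different library kits. Genes were matched by Ensembl identifier, 26086 of 26128 to GENCODE M21 (GRCm38).

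From the counts, genes with low counts were removed by filterByExpr (minimum count 10, minimum total 15), which took away 0.110% of the counts and left 14671 genes. Counts were scaled by TMM and compared with the quasi-likelihood test of edgeR 4.0.16 (robust, two-sided, R 4.3.3), with p-values adjusted by Benjamini-Hochberg across the genes tested. Calls needed an adjusted p under 0.05, and where stated a fold change of at least 1.5 (0.585 on the log2 scale). The square root of the common dispersion was 0.0468. Il3 and Il9 did not pass the filter. A total of 0 over the control group allows up to 3 counts in that group, or 0.0475 CPM, and such limits and intervals cover counting error only. Ratios between genes were compared by exact permutation over libraries.

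DESeq2 1.42.0, limma-voom (limma 3.58.1), DESeq2 size factors, 2 other filters, the replicate number as a block and each library left out were the alternatives. The scripts were tested on simulated data. Replicates of a group differed beyond sampling noise (chi-square per gene 2.64 to 3.67), so none was counted as a duplicate.

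The 8 genes and all lists were chosen with earlier results of these data known. Named beside them were neighbours within 500 kb past both thresholds or overlapping one of the 8, list genes past both thresholds together with Gata3, Stat6, Il1rl1, Il1rap, Il4ra, Il5ra and Csf2rb, and markers of other cell types above 1 CPM. Promoter windows came from RefSeq (GRCm38.p6), and motifs were searched on both strands.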

Additional observations from a re-analysis of the deposited data

How the results depend on the processing

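Each of 12 alternative fits gave 4 to 6 of the 8 genes an adjusted p under 0.05, and Il5, Il13 and Areg passed both thresholds in each. The number of the 8 genes past both thresholds was 5 without a filter on low counts, and 3 to 5 with 1 library left out, because Il3 and Il9 then entered the test. It was 5 without each control library. In the fits with 1 library left out, Il3 and Il9 passed the filter through their IL-33 libraries alone. They could then only be called upward, so these higher numbers are no further support. Neighbours past both thresholds numbered 2 in DESeq2 (P4ha2 and Rassf6), 3 with a filter of 1 CPM in each library of either group, 2 within 200 kb and 4 to 5 with 1 library left out. DESeq2 gave no adjusted p for 4933405E24Rik and Cxcl5, while Cxcl2 (0.0747) and Slc22a21 (0.119) lost their calls in it. Rassf6 was under the fold change threshold without control replicate 1 (log2 fold change 0.55). With the replicate number as a block, 666 genes passed both thresholds against 714, and Csf2 had an adjusted p of 0.0615 while the other tested genes of the 8 kept their calls. The deviations of equal numbers correlated at only 0.0032 to 0.0116, though each library correlated best with its own number, and no label ties the numbers together. Of the 72 values of the 6 tested genes, 61 kept direction and side of the threshold, 9, all of Csf2, lost the call and 2 changed sign. Those were Il4 at 0.079 without IL-33 replicate 2 and 0.084 without control replicate 3 (range -0.15 to 0.084 with 1 library left out). Csf2rb turned to -0.024 without IL-33 replicate 2 and -0.071 without control replicate 3 (range -0.071 to 0.24), Zbtb46 to -0.059 without control replicate 2 (range -0.059 to 0.17), and Ciita to 0.018, 0.13 and 0.0066 without IL-33 replicates 1 and 3 and control replicate 1 (range -0.20 to 0.13). The cause of these shifts was not tested. The marker calls of Cma1, Sox13, Calca and Cd4 (adjusted p 0.00761, 0.0367, 0.0396 and 0.0233) were lost with a library left out, at adjusted p up to 0.0932, 0.159, 0.321 and 0.125, and that of Mcpt8 (0.0559) was gained without IL-33 replicate 1 (0.00368). Depth limits Il3, Il9, Cxcl5 and 4933405E24Rik, each under 60 counts per group.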

Other observations

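The genes in this paragraph were chosen after their values were seen. Kif3a, a kinesin motor gene 1.0 kb from Il4, read 9.14, 9.10 and 8.21 CPM in the control and 10.2, 10.1 and 11.5 CPM in the IL-33 libraries, without overlap, at a log2 fold change of 0.27 (SE 0.123, edgeR adjusted p = 0.0997). Sept8, a septin gene 53.4 kb from Il4, fell from 34.1 ± 0.415 to 26.9 ± 1.56 CPM (SD, n = 3; log2 fold change -0.34, edgeR adjusted p = 3.81e-05). Irf1, an interferon-regulated transcription factor gene 44.9 kb from Il5, fell from 208 ± 3.67 to 186 ± 5.50 CPM (log2 fold change -0.17, edgeR adjusted p = 4.95e-05). These 3 genes flank the cluster in which Il13 and Il5 rose.

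Areg lies among other genes of the EGF family. Ereg, 46.0 kb away, had 1, 0 and 5 counts without and 1, 2 and 1 with IL-33. Epgn had 1 count in all 6 libraries together, and Btc had 3, all in IL-33 replicate 3. Of these EGF receptor ligands of the region, Areg alone had enough counts to be tested.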
